A study of Mus musculus with 8 samples.

Results

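Lyve1, Mrc1, Pf4, Cd163, F13a1, Folr2, Timd4, Ccr2, Cx3cr1 and Csf1r are 10 of the 32285 genes counted in cells of the mouse aorta, taken from its ascending thoracic segment in young animals of wildtype genotype. They were taken by name as receptors and markers of tissue-resident macrophages, and all 10 were found in the deposited gene list. The study gives 3 mice and ages of 11, 12 and 13 weeks, each age with its own hashtag antibody (hashtags 1, 2 and 3). Each hashtag is read here as 1 animal, which the labels do not state outright. Aortas were digested with collagenase and elastase, dead cells were depleted, and droplet 3′ RNA libraries were made together with hashtag libraries (4 of each kind). All cells of these libraries stand in 1 table, with 0 barcode sequences shared between its columns, and a cell cannot be traced to a library. No treatment is named, no older group was analysed here, and with 1 hashtag per age, ages were not compared.

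Macrophages that live in the walls of large arteries sit mainly in the adventitia, where they clear debris, apoptotic cells and haemoglobin and keep contact with collagen-rich matrix and smooth muscle. Their growth and survival depend on the CSF1 receptor. In many tissues, macrophages with the hyaluronan receptor LYVE1, the folate receptor FOLR2 and the phosphatidylserine receptor TIM4 (encoded by Timd4) are known as long-lived and self-maintaining, whereas CCR2, the receptor for CCL2, marks cells recently derived from blood monocytes. CX3CR1, the receptor for fractalkine, is carried by monocytes and by a part of the tissue macrophages.

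Cells with at least 500 genes and at most 20% mitochondrial UMIs (unique molecular identifiers, each standing for a counted transcript) were sorted by marker UMIs that leave out the 10 genes. A macrophage cell had at least 3 UMIs of the complement genes C1qa, C1qb and C1qc together. A smooth muscle cell (SMC) had at least 1.5% of its UMIs from Acta2, Tagln and Myh11, a fibroblast at least 0.3% from Dcn, and an endothelial cell at least 3 UMIs of Pecam1, Cdh5 and Gpihbp1. Of 27589 cells that passed the filter, 112 were macrophage, 20789 SMC, 2020 fibroblast and 928 endothelial cells. Another 1690 cells met more than 1 definition and were left out, and 2050 met none. 157 of the 269 cells that met the macrophage definition met another one too, 139 of them that of SMC.

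The macrophage cells had a median of 3056 UMIs and 1273 genes and the fibroblasts a median of 4096 UMIs. HTODemux gave a single hashtag to 77 of the 112 macrophage cells, and several hashtags, as a droplet with cells of different animals would have, to 27. Hashtags 1, 2 and 3 held 23, 17 and 37 macrophage cells with 73655, 63907 and 137080 UMIs. They held 1070, 735 and 901 SMC, 120, 111 and 106 fibroblasts, and 260, 170 and 216 endothelial cells. No hashtag was called for 51.7% of SMC and 67.2% of fibroblasts, and several for 35.3% and 16.1%. Values by hashtag in these groups thus rest on a part of their cells. The 9 listed macrophage markers outside the C1q genes were all detected in the macrophage cells, at a summed 9802 to 11658 counts per 1000000 UMIs (CPM) across hashtags, against at most 84.0 in any hashtag of the other groups. Smooth muscle markers summed to 3057 to 6165 CPM in the macrophage cells of the 3 hashtags, so transcripts of the most frequent cell type were present there as well. The 5 listed neutrophil markers summed to 167 CPM in the macrophage cells, against 30.8 in SMC and 11.0 in fibroblasts, with 57 UMIs of Mmp9 in 21.4% of the cells, 7 of Csf3r, 1 of S100a9, and S100a8 and Retnlg at 0. The 6 dendritic cell markers summed to 43.8 CPM in the macrophage cells, against 6.55 in SMC, 6.11 in fibroblasts and 49.7 in endothelial cells. The macrophage cells held 15 UMIs of Cd209a and 2 of Zbtb46, with Flt3, Xcr1, Clec9a and Ccr7 at 0. In endothelial cells Zbtb46 stood at 49.4 CPM and Cd209a at 0. The part of such cells in the levels below was not tested.

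**Figure D1:**
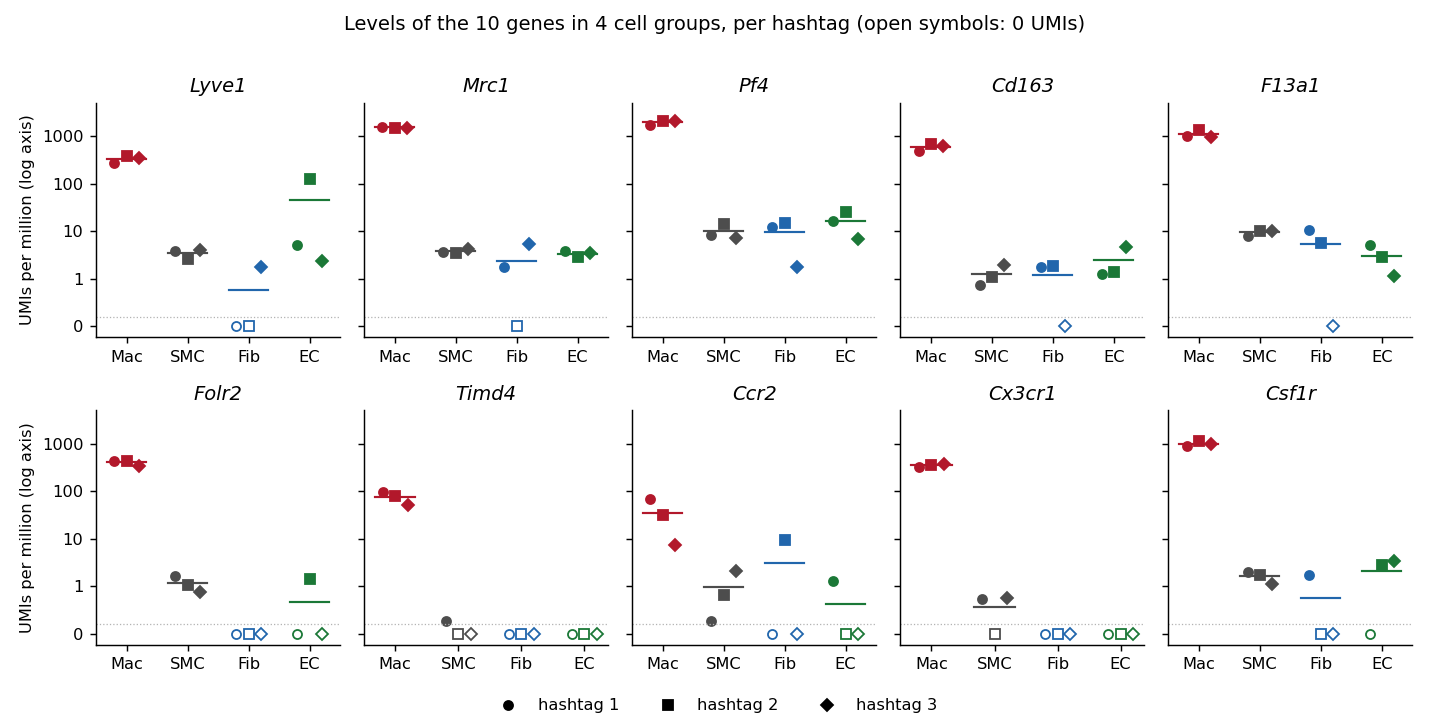
CPM (log axis) of each of the 10 genes in macrophage (Mac), smooth muscle (SMC), fibroblast (Fib) and endothelial (EC) cells. Each symbol is the summed cells of 1 hashtag, lines are means over the 3 hashtags where these are above the 0 band, and open symbols mark 0 UMIs. Macrophage values lie above those of the other groups for 9 genes, while Ccr2 spans 7.30 to 67.9 in macrophages and reaches 9.40 in fibroblasts of hashtag 2.

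Across the 3 hashtags, 9 of the 10 genes were higher in every macrophage sum than in any sum of the other groups, and Ccr2 was the exception. The share of all 8426 tested genes whose 3 macrophage values lay above the 3 of the other group was 18.9% for SMC, 15.1% for fibroblasts and 14.1% for endothelial cells. In edgeR's quasi-likelihood fit of all 4 groups with the hashtag as a block, 16.1% of the genes were called higher in macrophages than in SMC at a Benjamini-Hochberg adjusted p under 0.05, 12.4% than in fibroblasts and 11.0% than in endothelial cells. The shares called lower were 19.3%, 16.2% and 14.2%, and none of the 10 genes was among them. The filter on low counts kept the same 9 genes because of their macrophage sums and removed Ccr2. A high macrophage level was thus part of being tested. Neither the number of these genes called nor their adjusted p is read as support. Below, each gene is given by its values in the hashtags, the fitted difference and, for pooled cells, the ratio with its counting interval. The 3 sums are from separate hashtags, and the p-values set group differences against the spread left between these sums.

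Among the endocytic receptors, Mrc1, which encodes the mannose receptor CD206, stood at 1575, 1487 and 1510 CPM in macrophages of hashtags 1, 2 and 3. The 3 values differed little and no other group exceeded 5.28 CPM in any hashtag. The fitted difference from SMC was 8.51 ± 0.17 (log2, SE, adjusted p 1.17e-31 by edgeR), higher in 3 of 3 hashtags. Cd163, the receptor that takes up haptoglobin-bound haemoglobin, stood at 475, 689 and 635 CPM, against 0.74 to 1.91 in SMC and 1.27 to 4.65 in endothelial cells. Macrophages of hashtag 1 were the lowest and still far above the other groups, and the difference from endothelial cells was 7.81 ± 0.36 (adjusted p 6.85e-20, edgeR).

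Folr2, the folate receptor beta of myeloid cells, was at 434, 438 and 343 CPM in macrophages. Fibroblasts of the 3 hashtags had 0 Folr2 UMIs, so no fitted fold is given for that pair. Over all fibroblasts, whatever their hashtag, 9 Folr2 UMIs were counted against 144 in the 112 macrophage cells, a ratio of 371 per UMI (95% exact interval 190.03 to 828, counting error only). Timd4, whose product binds phosphatidylserine on dying cells, was at 95.04, 78.2 and 51.1 CPM in macrophages and at 0 in every hashtag of fibroblasts and endothelial cells. Those macrophage values rest on 7, 5 and 7 UMIs. Its call against SMC (adjusted p 5.87e-10 in edgeR) was lost in DESeq2 (adjusted p 0.0583), as were those against fibroblasts (0.183) and endothelial cells (0.164). Counting all cells, 20 Timd4 UMIs in macrophages and 28 in SMC gave a ratio of 173 (92.4 to 318).

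Lyve1, which encodes the hyaluronan receptor shared by lymphatic vessels and a part of the macrophages, was at 272, 376 and 350.2 CPM in macrophages. SMC had 2.58 to 4.01 CPM and fibroblasts 0, 0 and 1.76. Endothelial cells had 5.09, 128 and 2.33 CPM, so hashtag 2 stood far above the other two. The difference between macrophages and endothelial cells was 3.26 ± 0.50 (log2, SE, adjusted p 1.86e-06, edgeR), and without hashtag 2 it was 6.46 (adjusted p 1.78e-13). With all cells counted, whatever their hashtag, Lyve1 stood at 301 CPM in macrophages (117 UMIs) and 88.8 in endothelial cells (298 UMIs). The ratio per UMI, not in log2, was 3.39 (exact interval 2.72 to 4.22, counting error only). This pooled gap was smaller than the fitted difference. For the other 9 genes, the highest value in any hashtag outside macrophages was 25.6 CPM, of Pf4 in endothelial cells of hashtag 2.

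Pf4 and F13a1 encode secreted or intracellular proteins better known from platelets: the chemokine platelet factor 4 and the A chain of coagulation factor XIII, which cross-links fibrin and matrix. Pf4 was at 1711, 2034 and 2064 CPM in macrophages and F13a1 at 1018, 1330 and 963. The hashtag values of either gene lay close together and above those of every other group. SMC reached 14.2 CPM of Pf4 and 10.3 of F13a1, and their differences from macrophages were 7.52 ± 0.19 and 6.71 ± 0.19 (adjusted p 1.89e-28 and 5.62e-27, edgeR). 7 platelet and megakaryocyte markers gave 5 UMIs in all macrophage cells together (12.9 CPM), with Gp9, Gp1ba, Gp1bb, Gp6 and Tubb1 at 0. Pf4, by contrast, gave 652 UMIs in the same cells and was found in 84 of them.

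Csf1r, the receptor tyrosine kinase for CSF1 and IL-34, was at 896, 1142 and 970 CPM in macrophages and at no more than 3.49 CPM elsewhere. It was the gene found in most macrophage cells (89 of 112, 79.5%, 95% Clopper-Pearson interval 70.8 to 86.5). Cx3cr1 was at 326, 360 and 379 CPM, and SMC held 0.55, 0 and 0.57. Fibroblasts and endothelial cells of all hashtags had 0 Cx3cr1 UMIs. Over all endothelial cells, whatever their hashtag, 0 Cx3cr1 UMIs were counted against 118 in macrophages. The lower bound of the 95% exact interval of that ratio was 272 (counting error only).

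Ccr2 was scarce: 9 UMIs in 7 of the 112 macrophage cells (6.25%, interval 2.55 to 12.5). The hashtags held 5, 2 and 1 UMIs, or 67.9, 31.3 and 7.30 CPM, and 5 UMIs in fibroblasts of hashtag 2 (9.40 CPM) overlapped that range. Without the filter on low counts, Ccr2 was higher in macrophages than in SMC by 4.50 ± 1.05 (adjusted p 0.000201, edgeR) and than in fibroblasts by 3.10 ± 1.11 (adjusted p 0.0404). With hashtags called by their ratio to background, the difference from fibroblasts was 1.70 ± 1.21 (adjusted p 0.330). Without hashtag 3 it was 3.34 ± 1.23 (adjusted p 0.0591). The call against fibroblasts thus did not hold in every setting at this depth.

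A share of cells with a UMI depends on depth and on free RNA in the droplets, so fibroblasts, which should lack these genes, are given as a background. Between 6.25% (Ccr2) and 79.5% (Csf1r) of the macrophage cells had a UMI of a given gene, and between 0.050% (Timd4) and 3.71% (Pf4) of the fibroblasts, which were the deeper cells. When each cell was thinned to 1000 UMIs, which left out no cell, Mrc1 was found in 59.8% of the macrophage cells instead of 73.2%, Lyve1 in 18.8% instead of 33.9% and Timd4 in 2.68% instead of 13.4%. The matching thinned shares of fibroblasts were 0.45%, 0.099% and 0. Thinned Timd4 rests on 3 cells.

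Most UMIs of Csf1r and Mrc1 in SMC were single ones, unlike those of Lyve1 in endothelial cells, described further on. Of 170 SMC with a Csf1r UMI, 169 had a single one, and of 329 with Mrc1, 324 had a single one, whereas 66 of the 82 macrophage cells with Mrc1 had at least 3. SMC with 10 or more haemoglobin UMIs, a sign of red cell RNA in the droplet, had higher levels than the deeper SMC with fewer: Csf1r stood at 3.28 against 0.52 CPM, Cd163 at 2.62 against 0.34 and Pf4 at 17.7 against 5.58. F13a1 differed less, with 11.5 against 6.96 CPM. These SMC had a median of 2456 and 7316 UMIs, and the part of depth and of free RNA in these levels was not tested. Because SMC are so many, 52.9% of all F13a1 UMIs and 46.8% of all Pf4 UMIs in cells that passed the filter lay in SMC, and 21.3% and 28.8% in the 112 macrophage cells.

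Within macrophages the haemoglobin split went the other way. The 74 macrophage cells with fewer than 10 haemoglobin UMIs had 2071 CPM of Pf4 (95% Poisson interval 1898 to 2256) and the 38 with 10 or more had 937 (781 to 1116). Csf1r stood at 1043 and 550.4 CPM, Mrc1 at 1622 and 811, and Cd163 at 618 and 245. Lyve1, F13a1, Folr2 and Cx3cr1 were also lower in the cells with 10 or more, and the intervals of Timd4 and Ccr2 overlapped widely. Csf1r was found in 71 of 74 cells with fewer than 10 haemoglobin UMIs and in 18 of 38 with more. The cells with 10 or more had the same median depth (3081 against 3045 UMIs), 13.0% haemoglobin UMIs against 0.11%, and a median of 12 C1q UMIs against 32. Across hashtags, red cell markers in the macrophage cells ranged from 5633 to 92105 CPM. The part of these measures in the lower levels was not tested.

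The C1q definition had a threshold, and the levels just inside and just outside it are given as a description. Among cells that met none of the other 3 definitions, the 10 genes together stood at 71.4 CPM with 0 C1q UMIs (1886 cells), 205 with 1 (149 cells) and 185 with 2 (15 cells). Just inside, they stood at 822 CPM with 3 C1q UMIs (9 cells), 1184 with 4 to 5 (8 cells) and 2358 with 6 to 10 (5 cells). The 90 cells with more than 10 had 7207 CPM. The 22 cells nearest the threshold thus had lower levels than the other 90, with 0 Timd4 UMIs and at most 359 CPM of Pf4 in any of these bins.

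**Figure D2:**
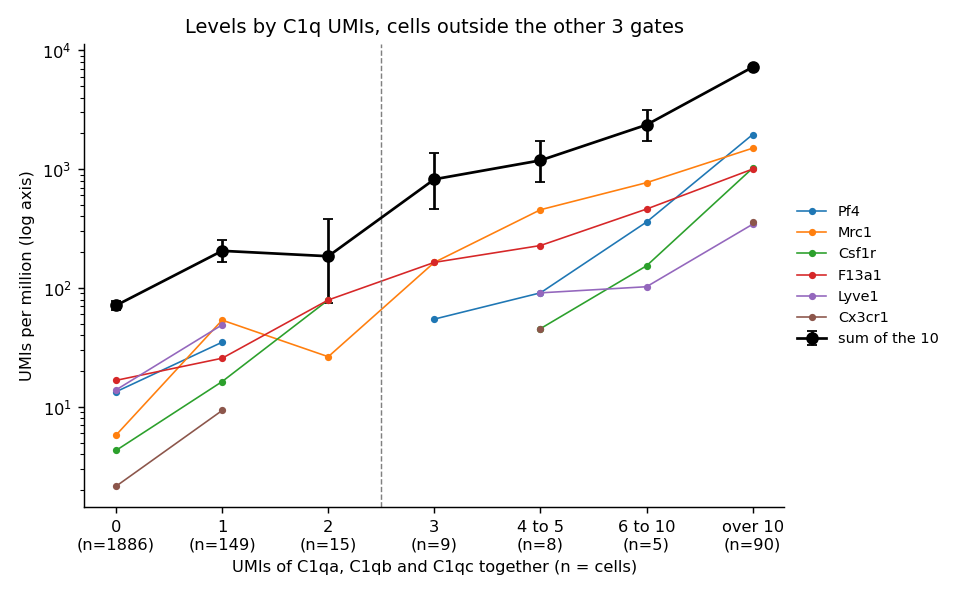
CPM (log axis) of the 10 genes together (black, with 95% Poisson intervals) and of 6 of them, by the number of C1q UMIs in cells that met none of the other 3 definitions. The dashed line is the threshold of the macrophage definition, and values of 0 are not drawn. The sum rises from 185 CPM at 2 C1q UMIs to 822 at 3 and 7207 above 10.

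The 10 genes were next followed in single macrophage cells. The median macrophage cell had UMIs of 5 of them and the most was 8, while 12 cells had none. 61 of the 112 macrophage cells had 5 or more, and no SMC, fibroblast or endothelial cell did. After thinning to 1000 UMIs the median was 3, and 29 macrophage cells still had 5 or more.

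Of the 45 pairs, 34 had a positive phi, a correlation of 2 yes-or-no calls of detection. F13a1 was found in 36 of the 38 macrophage cells with Lyve1 (94.7%) and in 20 of the 74 without (27.0%). Of the cells with Lyve1, 32 also had Cd163 and 30 had Folr2, against 25.7% and 16.2% of the cells without. These 4 genes gave the high phi values, with 0.66 for Cd163 and F13a1, 0.64 for Lyve1 and F13a1 and 0.61 for Lyve1 and Folr2, all over 112 cells. Mrc1 and Pf4, detected together in 76 cells, had 0.68. Thinned to 1000 UMIs, these phi values were 0.39, 0.38, 0.24 and 0.57 in the same order, so equal depth lowered them while their sign stayed positive. In the 74 cells with fewer than 10 haemoglobin UMIs they were 0.54, 0.61, 0.62 and 0.54. There, phi of Csf1r was 0.11 with Mrc1 and 0.13 with Pf4, against 0.49 and 0.52 in all 112. Of these 74 cells, 1 had none of the 10 genes, against 12 of all 112. The part of the haemoglobin split in the pairs was not tested. Cells share their library and free RNA, and phi is given without a test.

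Cx3cr1 and Ccr2 had negative phi values with Lyve1, Folr2, Timd4, Cd163 and F13a1 and positive ones with Mrc1 and Pf4. Cx3cr1 was found in 6 of the 38 cells with Lyve1 (15.8%) and in 32 of the 74 without (43.2%), with median depths of 3262 and 2979 UMIs (phi -0.27). In the 74 cells with fewer than 10 haemoglobin UMIs, phi of Cx3cr1 was -0.38 with Lyve1 and -0.05 with Mrc1. That of Ccr2 with F13a1 was 0.09 there. Over all macrophage cells, Cx3cr1 was found in 1 of the 15 with Timd4 and in 11 of the 42 with Folr2. Thinned, 2 of 21 cells with Lyve1 and 0 of 25 with Folr2 had Cx3cr1, against 17.6% and 20.7% of the cells without these genes. These negative phi values are weak and the thinned numbers small, so they are given as a description of these cells. Of 7 cells with Ccr2, 0 had Folr2, 0 had Timd4 and 1 had Lyve1, against 40.0%, 14.3% and 35.2% of the other 105, while 6 had Mrc1 and 6 had Pf4. At least 1 of Lyve1, Folr2 and Timd4 was found in 51 cells (45.5%) and all 3 in 11. Csf1r was shared by both kinds, being found in 37 of the 38 cells with Lyve1 and in 36 of the 38 with Cx3cr1.

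**Figure D3:**
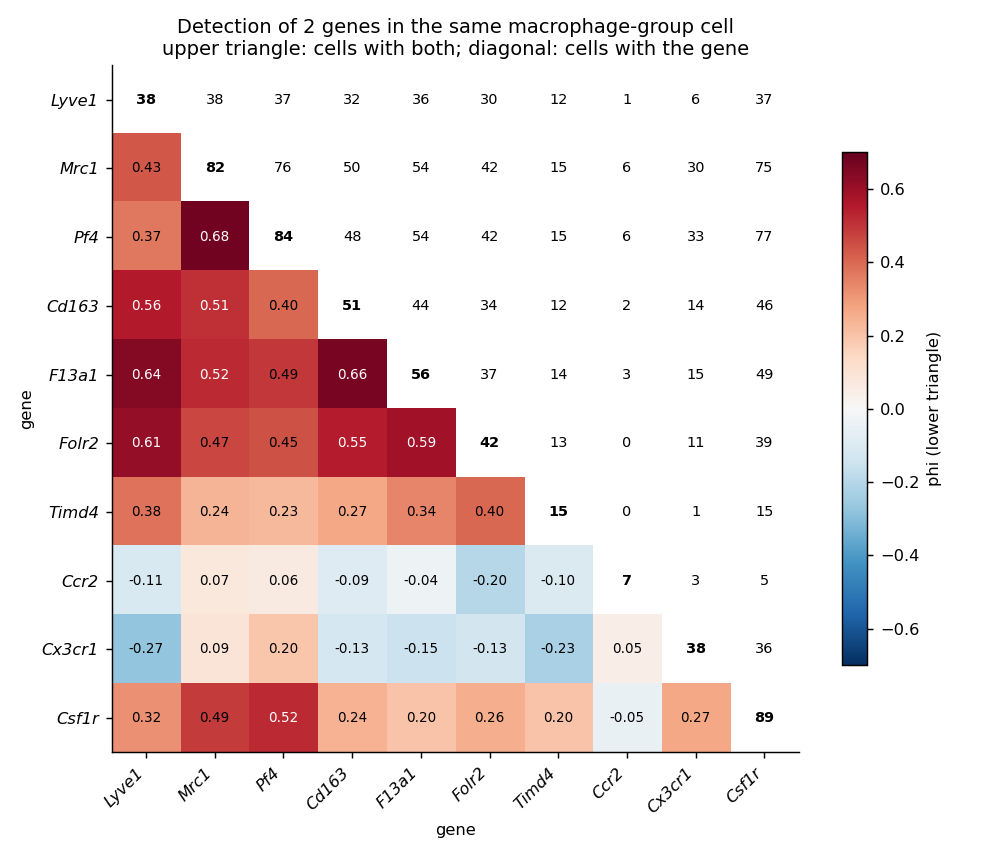
Detection of pairs of the 10 genes in the 112 macrophage cells. The diagonal gives the number of cells with a gene, the upper triangle the number with both genes, and the coloured lower triangle phi, where red means found together and blue found apart. Lyve1, Cd163, F13a1 and Folr2 form the block with 0.55 to 0.66, and Cx3cr1 has -0.27 with Lyve1 and -0.23 with Timd4.

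Macrophage cells with and without Lyve1 also differed in genes that are not among the 10. A list of 7 class II antigen presentation genes, among them H2-Aa, H2-Ab1 and Cd74, summed to 10949 CPM in the cells with Lyve1 (95% Poisson interval 10407 to 11511) and 23599 in those without (22999 to 24211). By hashtag, the sums with and without Lyve1 were 17588 and 23877 in hashtag 1, 5420 and 28646 in hashtag 2, and 13428 and 29473 in hashtag 3. All 3 hashtags had the lower sum in the cells with Lyve1, and hashtag 2 had the widest gap, from 8 and 9 cells. H2-Ab1 alone stood at 1601 CPM with Lyve1 and 4024 without. The share of cells with a UMI was alike for H2-Ab1 (78.9% with Lyve1, 78.4% without) and lower with Lyve1 for H2-DMb1 (13.2% and 33.8%). Ciita, on the same list, went the other way, at 100.1 CPM with Lyve1 and 40.2 without, from 14 and 10 UMIs.

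A list of 25 other genes of the resident programme, such as the lectin Cd209f, the chemokine Ccl8 and the scavenger receptor Stab1, went in the opposite direction. It summed to 16230 CPM in the cells with Lyve1 and 4680 without, and to 16720 and 6858, 19602 and 3112, and 17582 and 5171 in hashtags 1, 2 and 3. Ccl8 stood at 1194 CPM with Lyve1 and 68.4 without, and Cd209f at 679 and 68.4. The 18 pan-macrophage genes, such as Lyz2 and Fcer1g, differed far less, with 16545 and 13029 CPM. No test was made over the 3 hashtags.

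Splitting the cells by Cx3cr1 gave the mirror image. Class II genes summed to 23151 CPM in the 38 cells with Cx3cr1 and 16344 in the 74 without, and the resident programme to 5845 and 10808. The direction was the same in the 3 hashtags for both lists. Cd209d and Ednrb had 0 UMIs in the cells with Cx3cr1, against 34 and 43 UMIs in those without. The 7 cells with Ccr2 had 41325 CPM of class II genes (38540 to 44259) and the others 17848. Each of the 7 had H2-Aa, H2-Ab1, H2-Eb1 and Cd74 UMIs, which 76.8%, 78.6%, 72.3% and 91.1% of all 112 macrophage cells had.

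**Figure D4:**
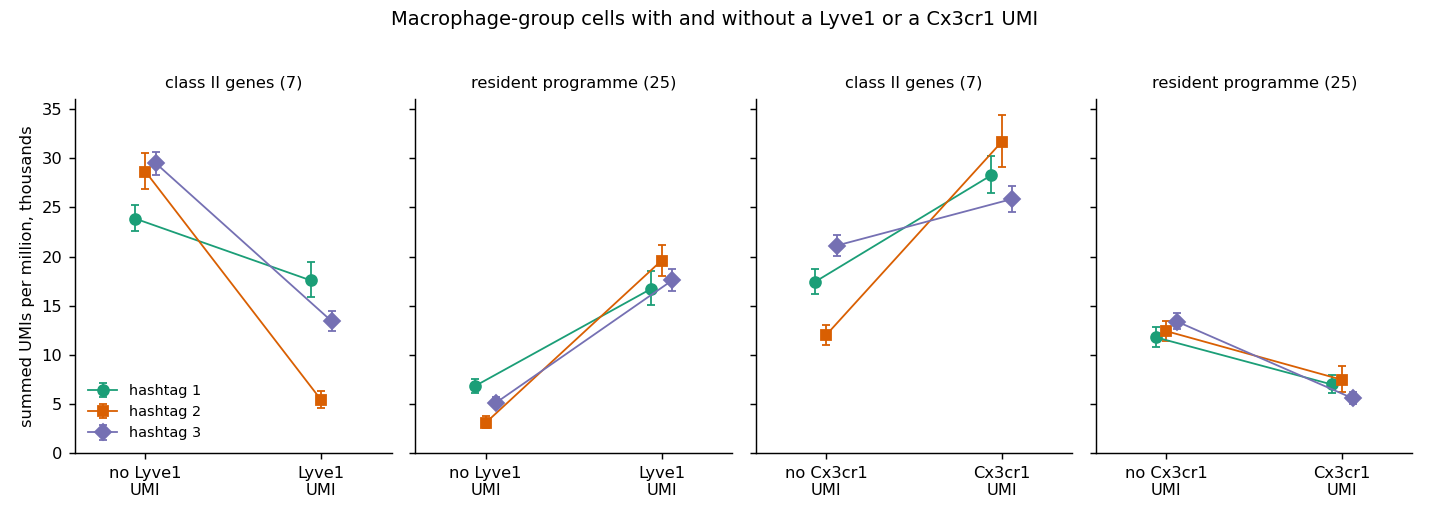
Summed CPM (axis in units of 1000) of 7 class II genes and of 25 resident programme genes in macrophage cells without and with a Lyve1 UMI (left pair) or a Cx3cr1 UMI (right pair). Each line is 1 hashtag, and bars are 95% Poisson intervals, which cover counting error only. Class II sums fall and resident programme sums rise from cells without to cells with Lyve1 in all 3 hashtags, and the reverse holds for Cx3cr1.

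The genes most like each of the 10 were ranked by phi over the 112 macrophage cells after thinning, among 2779 genes. For Lyve1 they were Ap2a2 and Ltc4s (0.47 each), followed by Cd163 (0.47). For Folr2 they were the lectin Clec10a (0.57), Reps2 (0.44) and Cd209f (0.44). Selenop, the selenium transport protein, and Lyz2, lysozyme, were among the first 3 for both Mrc1 and Csf1r, and F13a1 had Ccl24 (0.43) next to Mrc1 (0.45). Timd4 and Ccr2 were found in too few thinned cells to be ranked.

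Promoters of Mrc1, Pf4 and F13a1, which were often found in the same cells, are shown with that of Cx3cr1, which had phi values of 0.09, 0.20 and -0.15 with them. RefSeq promoters (GRCm38.p6, 250 bases before to 50 after the start) matched 8 of the 10 genes with 10 promoters. 2 motifs were searched on both strands: GAGGAAG, a site type bound by PU.1, the myeloid master regulator, and TGCTGAC, a site type of MAF factors. GAGGAAG or its reverse complement was in 4 of the 10 promoters, those of Mrc1, Pf4 and F13a1, and in 13.6% of all 32851 promoters. F13a1 has 2 of these promoters, so by gene it was in 3 of 8, against 15.4% of 27025 genes. The 3 genes shown beside Cx3cr1 are thus those with a match. The promoters of Cd163 and Folr2, which were also often found with F13a1 (phi 0.66 and 0.59), held no match. TGCTGAC or its reverse complement was in the promoter of Timd4 and in 4.67% of all promoters, and no matches of the 2 motifs overlapped. Capitals mark the GAGGAAG matches. Mrc1 is read from chr2:14229164-14229463 (plus strand), Pf4 from chr5:90772185-90772484 (plus strand), F13a1 from the first of its 2 promoters at chr13:37050195-37050494 (minus strand) and Cx3cr1 from chr9:120068247-120068546 (minus strand).
Mrc1: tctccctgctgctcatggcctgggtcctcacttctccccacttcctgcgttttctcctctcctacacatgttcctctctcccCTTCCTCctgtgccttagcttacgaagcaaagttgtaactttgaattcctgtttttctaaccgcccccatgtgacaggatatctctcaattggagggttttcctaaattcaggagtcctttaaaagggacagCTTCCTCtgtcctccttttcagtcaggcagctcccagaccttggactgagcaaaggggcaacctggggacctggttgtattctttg
Pf4: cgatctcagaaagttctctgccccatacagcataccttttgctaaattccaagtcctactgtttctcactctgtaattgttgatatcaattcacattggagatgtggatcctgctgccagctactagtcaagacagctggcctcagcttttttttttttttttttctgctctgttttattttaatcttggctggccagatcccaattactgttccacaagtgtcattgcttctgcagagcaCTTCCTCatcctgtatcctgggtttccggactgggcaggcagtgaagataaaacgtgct
F13a1: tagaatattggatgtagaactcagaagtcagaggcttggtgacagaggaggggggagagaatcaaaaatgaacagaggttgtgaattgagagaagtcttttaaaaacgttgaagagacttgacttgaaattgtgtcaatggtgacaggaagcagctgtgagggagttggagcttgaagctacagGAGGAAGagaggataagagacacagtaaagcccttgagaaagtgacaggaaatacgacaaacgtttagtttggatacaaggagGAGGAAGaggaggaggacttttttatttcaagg
Cx3cr1: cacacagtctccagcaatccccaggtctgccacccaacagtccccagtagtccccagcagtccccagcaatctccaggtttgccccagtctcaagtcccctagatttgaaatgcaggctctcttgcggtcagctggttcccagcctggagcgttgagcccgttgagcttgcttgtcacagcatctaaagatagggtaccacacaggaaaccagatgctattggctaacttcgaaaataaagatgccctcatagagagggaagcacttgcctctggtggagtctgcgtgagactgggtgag
The matches begin 168 and 36 bases upstream of the start in Mrc1, 9 bases upstream in Pf4, and 66 bases upstream and 17 downstream in F13a1. The Cx3cr1 window holds neither motif, which says only that these letters are not in this window.

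Other genes of the same pathways were counted from lists chosen with earlier results of these data known. Of all tested genes, 16.1% were called higher in macrophages than in SMC, 12.4% than in fibroblasts and 11.0% than in endothelial cells. List genes that were low in the other groups passed the filter on low counts through their macrophage sums. The list counts, here and in the next paragraphs, are thus a description and not support. Of the 23 tested resident programme genes besides the 10, 21 were higher in macrophages than in SMC and 1 was lower, with a median log2 difference of 6.47 against -0.24 over all tested genes. Selenop was higher by 3.51 ± 0.14, Trf (transferrin) by 6.47 ± 0.19 and Mgl2 by 8.64 ± 0.26. Against fibroblasts, 20 were higher, while Gas6, a bridging ligand of phosphatidylserine receptors, and Fgfr1, a fibroblast growth factor receptor, were lower. All 7 class II genes were higher in macrophages in each of the 3 comparisons (median 7.81 against SMC).

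Monocyte and inflammatory genes were mixed. 11 of 18 passed the filter, and against SMC 4 were higher, 3 lower and 4 not called, with a median of -0.64. Cd52 was higher by 6.78 ± 0.21 and Itgam, an integrin of myeloid cells, by 8.87 ± 0.49, while Cd9 was lower by -1.39 ± 0.18. The medians of this list against fibroblasts and endothelial cells were 0.58 and -0.21.

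On the CSF1 receptor axis, 5 of 6 tested genes were higher in macrophages than in SMC and 1 lower. Spi1, which encodes PU.1, was higher by 8.62 ± 0.50 and Csf2ra, a receptor chain for GM-CSF, by 4.40 ± 0.43. Csf1, the ligand, was the gene that was lower, named here after its values were seen. It stood at 12.9 CPM in macrophages, 26.9 in SMC, 123 in fibroblasts and 39.9 in endothelial cells, and was called lower in macrophages than in fibroblasts (adjusted p 4.74e-07, edgeR). The macrophage level rests on 5 UMIs, so no fitted fold is given. Il34, the other ligand, had 0 UMIs in macrophages, which allows up to 7.72 CPM, and 1.22 CPM in fibroblasts, so a difference was not detectable at this depth.

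Among the chemokine genes on the list of ligands, Ccl8, Ccl12 and Ccl2 were higher in macrophages than in SMC by 7.46 ± 0.45, 8.41 ± 0.55 and 6.86 ± 0.83. Ccl7, another, did not differ from fibroblasts (0.53 ± 0.84, adjusted p 0.695, edgeR). Cx3cl1, the ligand of CX3CR1, named after its values were seen, was called lower in macrophages than in endothelial cells (adjusted p 0.00887, edgeR). It had 1 UMI in macrophages (2.57 CPM) and 76 in endothelial cells (22.6 CPM), and no fitted fold is given.

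Genes that handle haem and iron after uptake by CD163 were also examined. 7 of 10 were higher in macrophages than in SMC and 1, Fth1, was lower (-0.77 ± 0.13, adjusted p 7.14e-06, edgeR). Ftl1, the ferritin light chain, was higher by 3.20 ± 0.12 and Blvrb, a biliverdin reductase, by 2.43 ± 0.20. For phosphatidylserine and scavenger receptors, 4 of 6 tested were higher than in SMC, with Stab1 at 6.90 ± 0.28 and Cd36 at 3.83 ± 0.25. Cd36 was lower in macrophages than in endothelial cells (-2.60 ± 0.18, adjusted p 2.43e-14, edgeR). None of the 5 folate handling genes passed the filter, and the receptor Folr1 had 0 UMIs in macrophages.

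Lyve1 in endothelial cells was held by few cells. Its 298 UMIs lay in 26 of the 928 cells, and 10 cells held 80.2% of them. Those 26 cells, with a median of 4787 UMIs against 2675 in the other 902, had 6237 CPM of 6 lymphatic markers, and the others had 47.2. Prox1, the transcription factor of lymphatic identity, stood at 287 against 5.67 CPM, and Mmrn1 at 1407 against 5.98. The chemokine Ccl21a had 683 UMIs in 12 of the 26 cells and 2 UMIs in the other 902. Of the other endothelial markers, Gpihbp1 stood at 226 against 1777 CPM, Cdh5 at 287 against 1011, Kdr at 265 against 909 and Egfl7 at 530 against 881. Pecam1 was alike, at 1032 against 1009 CPM, and Vwf was higher, at 237 against 152. Gpihbp1, Cdh5 and Pecam1 were themselves part of the endothelial definition. Of the 9 macrophage markers, none was detected in the 26 cells except Mertk (5 UMIs), and the 26 cells had 0 Csf1r, Folr2 and F13a1 UMIs. 8 Mrc1 UMIs in 7 of the 26 cells gave 44.2 CPM, against 2.52 in the others.

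**Figure D5:**
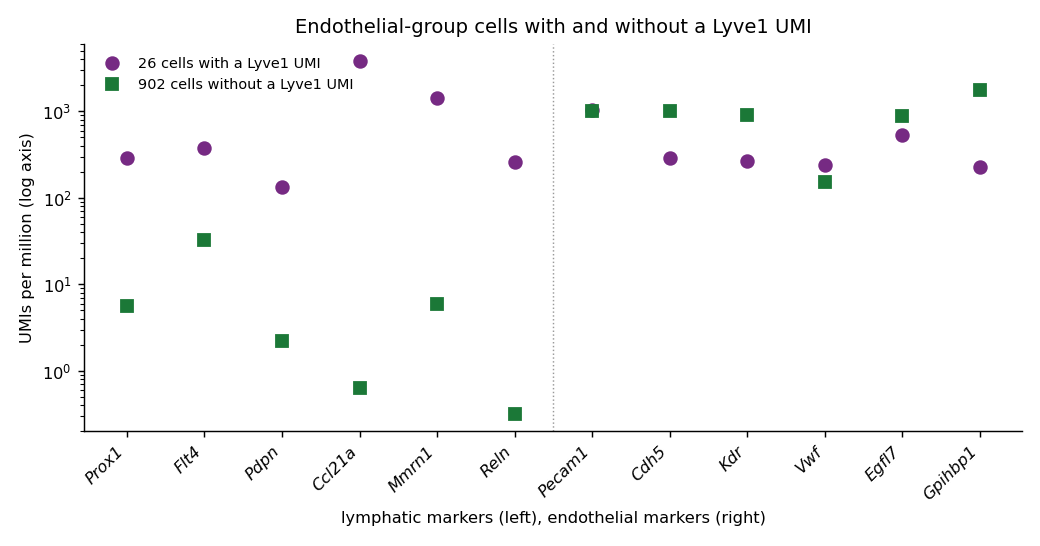
CPM (log axis) of 6 lymphatic markers (left of the dotted line) and 6 endothelial markers (right) in endothelial cells with a Lyve1 UMI (26 cells, purple) and without (902 cells, green). Lymphatic markers are higher in the cells with Lyve1, for instance Mmrn1 at 1407 against 5.98, and Gpihbp1 is lower, at 226 against 1777. Pecam1 (1032 against 1009) and Vwf (237 against 152) are not lower.

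Ccr2 and Lyve1 were also found in cells that met none of the 4 definitions. 42.7% of all Ccr2 UMIs lay there, 64 UMIs in 32 of 2050 cells. These 32 cells had 7806 CPM of class II genes against 520.01 in the rest, 510.0 against 89.8 CPM of T cell markers, and 62 UMIs of the cytotoxic granule gene Nkg7 in 5 cells. Myeloid and monocyte genes were higher in them as well, with Lyz2 at 847 against 67.7 CPM, Tyrobp at 280 against 33.1 and Ly6c2, in 2 cells, at 115 against 9.71. 105 Lyve1 UMIs lay in 26 such cells, with lymphatic markers at 3119 CPM against 25.01 in the rest. Cells that met both the macrophage and the SMC definition alone (129) had lower levels than the macrophage group, such as 189 CPM of Mrc1 and 133 of Csf1r, together with 11676 CPM of Acta2 against 2121 in the macrophage group.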

How the data were processed

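Unique molecular identifier (UMI) counts per gene and cell, and hashtag counts, were deposited by the authors as 1 raw matrix of all libraries, made with Cell Ranger 6.0.1 per the file header, with mm10 and Seurat 4.0.5 named in the submitters' processing notes. Filters and group definitions are given in the text. No doublet caller was run, and cells of more than 1 group were dropped. Hashtags were called with HTODemux (Seurat 5.3.0, quantile 0.99). Counts were summed by hashtag and group, filtered with filterByExpr, scaled with TMM and fitted with edgeR 4.0.16 (quasi-likelihood, hashtag as a block, R 4.3.3), with Benjamini-Hochberg adjustment. The labels tie each hashtag to an age, and sums of the same hashtag are taken to share an animal, so the pairing comes from the design. CPM are counts per 1000000 UMIs of a group. The gene annotation used was not given in the sources read. DESeq2 1.42.0 was an alternative. The SE of an edgeR difference is its size divided by the square root of its F statistic. The fits were also run on simulated data with smaller differences than those fitted for the tested members. These simulations cannot speak to differences of that size. Intervals are 95% exact Poisson or Clopper-Pearson intervals and, like the limit of 3 counts for 0, cover counting error only. Members and lists were chosen with earlier results of these data known. Named list genes are those with the most macrophage UMIs among those tested, and a few others are marked as chosen after their values were seen. The values of 1 list gene are not reported here.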

Additional observations from a re-analysis of the deposited data

Results flagged for a closer look

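Cells with more than 20% mitochondrial UMIs were outside every comparison, and 128 of them met the macrophage definition alone, with a median of 1737 UMIs. All 10 genes were found in them, and for each the lower bound of the counting interval lay above the highest hashtag value in the other 3 groups. That highest value has a counting error too. The interval of Ccr2, 10.4 to 53.2 CPM from 7 UMIs, overlapped that of fibroblasts of hashtag 2 (3.05 to 21.9, 5 UMIs). For Lyve1, 150 to 260 CPM overlapped 103 to 158 in endothelial cells of hashtag 2. Among the endocytic receptors, Mrc1 stood at 1003.2 CPM, Cd163 at 413.1, Folr2 at 313.5, Lyve1 at 199.2 and Timd4 at 59.0. Pf4 stood at 900.0 CPM and F13a1 at 689.7. Of the signalling receptors, Csf1r stood at 490.5 CPM, Cx3cr1 at 125.4 and Ccr2 at 25.8. The levels of Pf4, Csf1r and Cx3cr1 were below those of the macrophage cells that passed the filter (1678, 873 and 304 CPM), while Timd4 and Ccr2 were close to theirs (51.5 and 23.2). The part of cell damage and lower depth in these levels was not tested.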

How the results depend on the processing

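Leaving out 1 hashtag at a time, the genes called between macrophages and SMC numbered 1963 to 2674, against 2982 with all 3, those against fibroblasts 1499 to 2075, against 2403, and those against endothelial cells 1304 to 1841, against 2121. The lowest counts came without hashtag 3, which holds the most macrophage cells. Without the replicate block they numbered 2978, 2404 and 2109, and the block changed no call of the 10 genes. Not every leave-one-out fit kept all 9 tested genes past the filter on low counts. Where an alternative tested them, their fitted differences kept their direction and stayed past the threshold, except Timd4 in DESeq2. There, log2 differences of 9.96, 7.72 and 8.29 from SMC, fibroblasts and endothelial cells had DESeq2 adjusted p of 0.0583, 0.183 and 0.164. Totals without TMM scaling moved the median of all genes against SMC by 0.12. Keeping cells of several groups moved the pooled level of 9 of the 10 genes by more than 1 SD between hashtags, and cells with fewer than 10 haemoglobin UMIs alone moved 6. Thinning moved 33 of the 45 pair shares outside their 95% Clopper-Pearson interval. Fits at a limit of 10% mitochondrial UMIs were not run, since each macrophage sum would hold fewer than 10 cells. Depth limits Ccr2 and Timd4 most, with 9 and 20 UMIs in macrophages.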
